A study of Rattus norvegicus with 4 samples.

Results

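This account covers 5 rat genes measured in PC12 cells: the flavin-containing monooxygenase genes Fmo1, Fmo2, Fmo4 and Fmo5, and the homeobox gene Prrx1. They were chosen by name, with their difference between the MAX and empty vector lines in view. Their fold changes are therefore a description and not an independent test. Each had 1 probe, named through a RefSeq accession, and all 5 were among the 25355 genes tested. Of those 25355, 6316 had a symbol. The others were counted by the array's own identifier, so some genes may be counted repeatedly.

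PC12 is a rat line derived from a pheochromocytoma, a tumour of adrenal chromaffin cells, and carries no working MAX protein, which MYC proteins need in order to bind DNA. Per the series' design text, 1 line was transfected with an empty vector and the other with an expression plasmid for MAX. Both went through nucleofection and drug selection (E418, as the labels spell it), and each was sampled at passages 8 and 13. Total RNA was hybridised to 4 one-colour arrays, 2 per group, so each group is 1 transfected line and the p-values measure the spread between samples of a line. An effect of the plasmid cannot be told apart from any other difference between the lines. Which replicate number belongs to which passage is not given in the sources used here.

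Flavin-containing monooxygenases sit in the endoplasmic reticulum and use FAD, NADPH and molecular oxygen to add an oxygen atom to nitrogen or sulfur in drugs, other foreign compounds and some metabolites. In rodents FMO1 is known from liver and kidney and FMO2 from lung, while FMO5 is known for inserting oxygen beside a carbonyl group. PRRX1 is a paired-type homeodomain transcription factor of embryonic mesenchyme. In the RefSeq gene order of assembly GRCr8, Fmo4, Fmo1 and Fmo2 follow each other on rat chromosome 13, and Prrx1 lies further along, past Fmo6 and Mroh9. Fmo5 lies apart, on chromosome 2.

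The sequences just before the RefSeq start of 4 of the 5 genes are shown, since Fmo1, Fmo2 and Prrx1 moved together and Fmo5 did not. They are the 250 bases before the start, 5′ to 3′ on the gene's strand, from RefSeq, assembly GRCr8. Capitals mark each match to CANNTG, the general E-box of basic helix-loop-helix factors such as MYC and MAX.
Fmo1 (chr13:77747667-77747916, minus strand): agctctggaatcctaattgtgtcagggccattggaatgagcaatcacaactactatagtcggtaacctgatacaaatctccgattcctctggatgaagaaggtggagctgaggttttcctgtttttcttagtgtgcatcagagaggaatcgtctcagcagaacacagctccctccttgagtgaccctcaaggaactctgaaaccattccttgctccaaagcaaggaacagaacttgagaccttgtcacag
Fmo2 (chr13:77777535-77777784, minus strand): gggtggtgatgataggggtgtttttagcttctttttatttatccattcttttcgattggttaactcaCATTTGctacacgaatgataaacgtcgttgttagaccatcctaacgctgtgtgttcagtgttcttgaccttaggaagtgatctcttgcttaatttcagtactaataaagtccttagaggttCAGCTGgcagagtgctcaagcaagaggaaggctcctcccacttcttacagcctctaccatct
Prrx1 (chr13:78204074-78204323, minus strand): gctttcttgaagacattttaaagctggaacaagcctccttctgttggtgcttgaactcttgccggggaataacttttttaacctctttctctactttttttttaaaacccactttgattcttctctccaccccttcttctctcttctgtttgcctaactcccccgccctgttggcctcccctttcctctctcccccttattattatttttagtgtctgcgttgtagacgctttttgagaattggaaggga
Fmo5 (chr2:187910714-187910963, plus strand): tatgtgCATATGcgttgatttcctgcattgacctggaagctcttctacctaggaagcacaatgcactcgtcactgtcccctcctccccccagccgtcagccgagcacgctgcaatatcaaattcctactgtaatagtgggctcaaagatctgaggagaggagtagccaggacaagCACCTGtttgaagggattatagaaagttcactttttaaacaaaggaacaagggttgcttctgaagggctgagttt

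The canonical E-box CACGTG, bound by MYC and MAX dimers, had 0 matches in any of these 4 windows. It was found in 5.6% of 33469 such windows in the RefSeq promoter table. CANNTG, of which CACGTG is one form, matched 2 times in the window of Fmo2 and 2 times in that of Fmo5, and 0 times in those of Fmo1 and Prrx1, against 65.5% of all windows with at least 1 match. Both motifs read the same on either strand. ACGTG, the core of hypoxia response elements (16.6% of windows), and TAATTA, a homeodomain motif (4.9%), were searched on both strands and had 0 matches in all 4. ACGTG overlaps CACGTG. The windows were 42.0% to 47.6% G or C, with a median of 51.2% over all windows. A match, or none, says only which letters these windows hold.

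Fmo1, Fmo2 and Prrx1 were higher in the cells with the MAX plasmid, by 13.3-, 7.07- and 5.72-fold. Fmo4 was 2.66-fold higher without passing the threshold over all genes, and Fmo5 was at about the same level in both lines. Signals are given first as processed signal units, which are background-subtracted by the scanner software and not scaled between arrays. Fold changes use log2 signal minus each array's 75th percentile. Tests used limma across all genes, p-values were adjusted by Benjamini-Hochberg, and 0.05 was the threshold.

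Fmo1 gave 25.1 and 23.2 signal units on the empty vector arrays and 255 and 368 on the MAX vector arrays. The scanner software's own error on these signals was 3.26, 3.4, 25.7 and 36.9 units, so both MAX vector arrays stood far above both empty vector arrays. Relative to the 75th percentile, the log2 signals were -4.80 and -4.72 against -1.21 and -0.86. The log2 fold change was 3.73 ± 0.15 (SE, n = 2 arrays per group; adjusted p = 0.0197 in limma), and the fold between any MAX vector array and any empty vector array lay between 11.4 and 15.4. Fmo1 stood at place 32 of 25355 when genes were ordered by fold change from the top.

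Fmo2 gave 32.3 and 41.6 units on the empty vector arrays, and 212 and 290 on the MAX vector arrays. Its log2 signals were -4.44 and -3.88 against -1.48 and -1.20, again with no overlap. The empty vector arrays differed from each other by 0.56 on the log2 scale, the widest gap between replicates among the 5 genes. The log2 fold change was 2.82 ± 0.24 (SE, n = 2 arrays per group; adjusted p = 0.0431 in limma).

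Fmo4 gave 63.3 and 63.9 units in the empty vector line. In the MAX vector line it gave 137 and 191. Its log2 signals were -3.47 and -3.26 against -2.10 and -1.80, so the groups did not overlap here either. The log2 fold change was 1.41 ± 0.16, and the adjusted p of 0.0654 in limma missed the threshold. With other settings it passed in 5 of 17 alternatives, among them quantile normalization (1.43, adjusted p = 0.0432 in limma).

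Fmo5 gave 60.6 and 47.7 units in the empty vector line, against 41.1 and 53.0 in the MAX vector line. The groups overlapped, and the log2 fold change was -0.14 ± 0.12 (adjusted p = 0.611 in limma). Fmo5 is the member of the family that lies away from the others in the genome.

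Prrx1 gave 31.3 and 24.9 units in the empty vector line, against 150.0 and 157 in the MAX vector line. Its log2 signals were -4.48 and -4.62 against -1.98 and -2.09. Replicates lay close to each other in both groups, at 0.13 and 0.11 on the log2 scale. The log2 fold change of 2.52 ± 0.10 (SE, n = 2 arrays per group; adjusted p = 0.0197 in limma) had the smallest error of the 5.

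**Figure D1:**
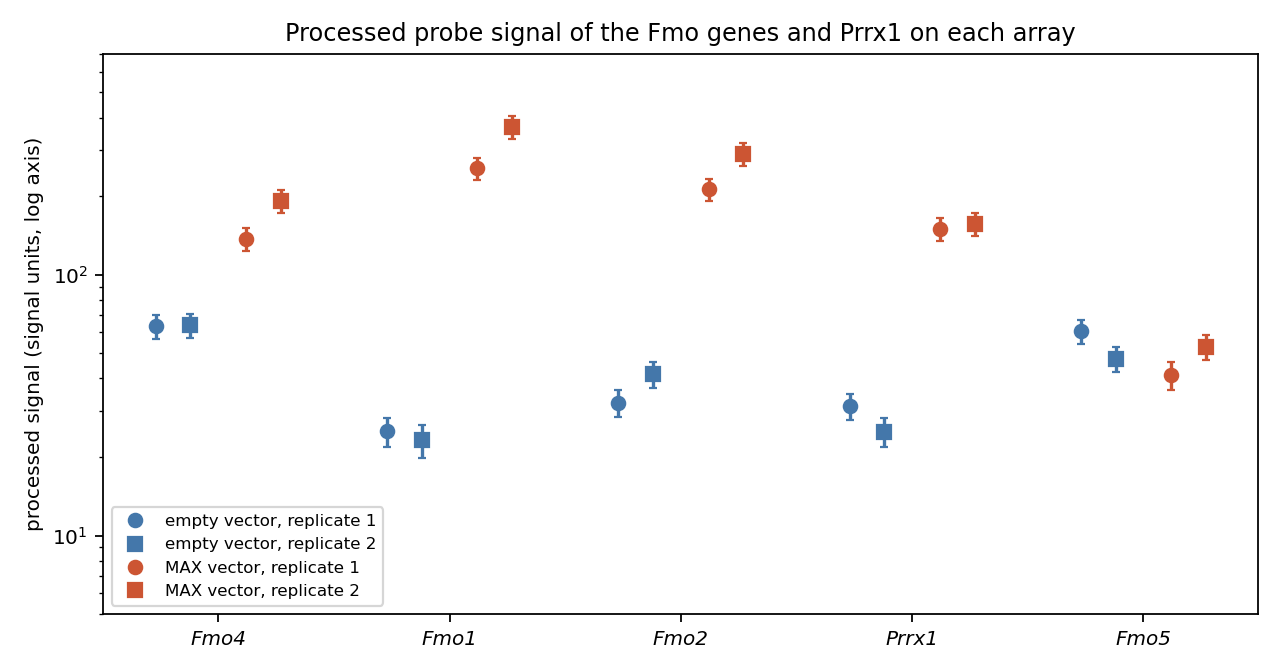
Processed probe signal on a log axis (signal units) for each gene on each array; bars are the error the scanner software gives a spot. Both MAX vector arrays lie above both empty vector arrays for Fmo4, Fmo1, Fmo2 and Prrx1, while those of Fmo5 overlap.

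In all, 3 of the 5 genes passed, all higher, where 0.576% of all genes tested passed in that direction. Both MAX vector arrays lay above both empty vector arrays for 4 of the 5, against 24.2% of all genes. The genes were chosen from this contrast, so nothing is read from these shares. Counting both directions, 0.840% of all genes passed. The empty vector signal of Fmo1 was close to background: the median pixel value of the spot was 61 and 54, with a local background of 26.5 and 28, while on the MAX vector arrays it was 289.5 and 325, over 21 and 31.

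The size of the fold moved with the background correction. With normexp, which here adds 50 units to every signal, the log2 fold changes fell to 1.97 for Fmo1, 1.57 for Fmo2, 0.90 for Fmo4 and 1.32 for Prrx1, and all 4 passed (adjusted p = 6.36e-07, 1.15e-05, 0.00266 and 5.15e-05 in limma). MAX vector replicate 1 was the only array on its slide. A fit blocked by slide therefore used only the other 3 arrays: its values were 3.90, 2.96, 1.56 and 2.46, and no member passed (adjusted p = 0.0522, 0.103, 0.103 and 0.0676 in limma). Without empty vector replicate 1 or 2 none passed either (0.245 to 0.429), with log2 fold changes of these 4 genes between 1.31 and 3.77. Without MAX vector replicate 2, Fmo1 and Prrx1 passed (adjusted p = 0.049 for both in limma) and Fmo2 did not (2.68, adjusted p = 0.0674).

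**Figure D2:**
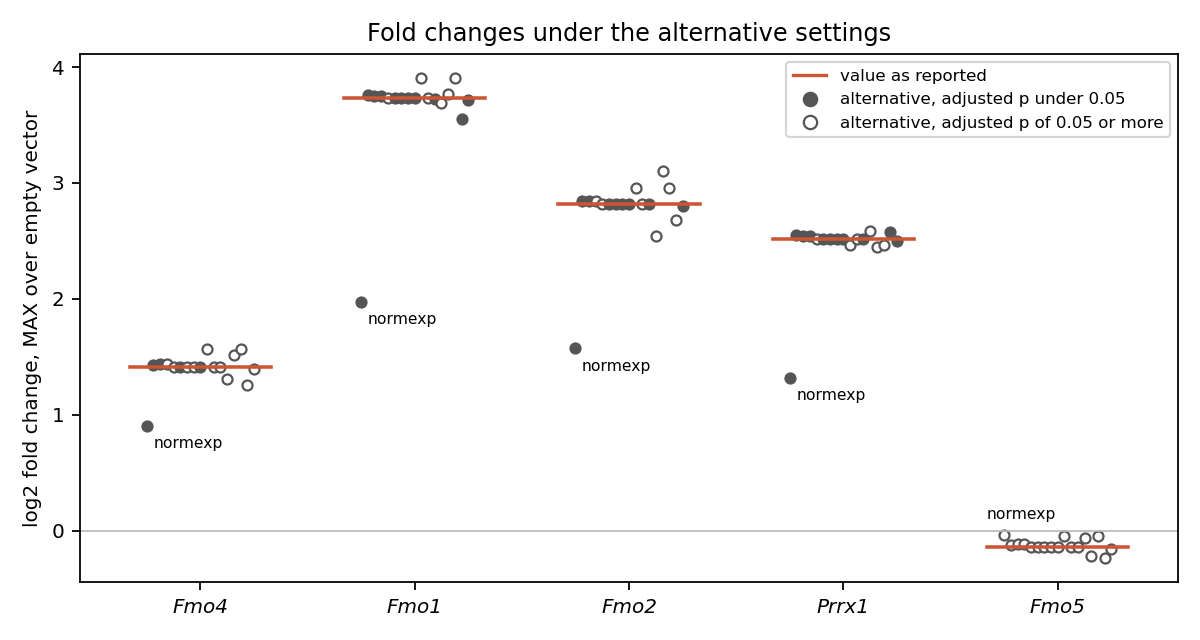
Log2 fold change of MAX over empty vector for each gene under 17 alternative settings; the line is the value as reported, and filled points had an adjusted p under 0.05. No point of Fmo4, Fmo1, Fmo2 or Prrx1 lies at or below 0, and the lowest of each is the value with normexp.

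Fmo6 and Mroh9 had no probe named here. The Fmo genes are close paralogs and the probes' own sequences were not analysed here, so which member gave a signal is uncertain.

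None of the genes around the cluster that were tested under a symbol passed. Of the 15 protein-coding genes with a symbol before Fmo4 and the 15 after Prrx1, 13 were tested. The number that passed in limma was 0, and 3 had an unadjusted p under 0.05, as did 16.1% of all genes. Their log2 fold changes lay between -0.52 and 0.35 with a median of 0.10, and the median of all genes tested was -0.019. The nearest measured gene before the cluster was Myoc, which encodes the secreted protein myocilin. It was dim, with log2 signals of -5.06 and -5.55 against -5.26 and -4.85 that overlapped, and a log2 fold change of 0.25 ± 0.24. Mettl13 and Vamp4, which also lie before Fmo4, had no named probe. Dnm3, a dynamin gene further out, had -0.47 ± 0.13 (adjusted p = 0.238 in limma).

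On the other side the nearest gene tested under a symbol was Firrm, with log2 signals of 1.52 and 1.59 against 1.02 and 1.29. Its log2 fold change was -0.40 ± 0.13 (adjusted p = 0.28 in limma). Gorab, Ntmt2, Kifap3 and Scyl3 lie between Firrm and Prrx1. They had no named probe, so the genes next to Prrx1 on that side could not be read here. Probes without a symbol may include them. Ccdc181 had 0.35 ± 0.08 and Atp1b1, which encodes a sodium pump subunit, -0.36 ± 0.14.

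**Figure D3:**
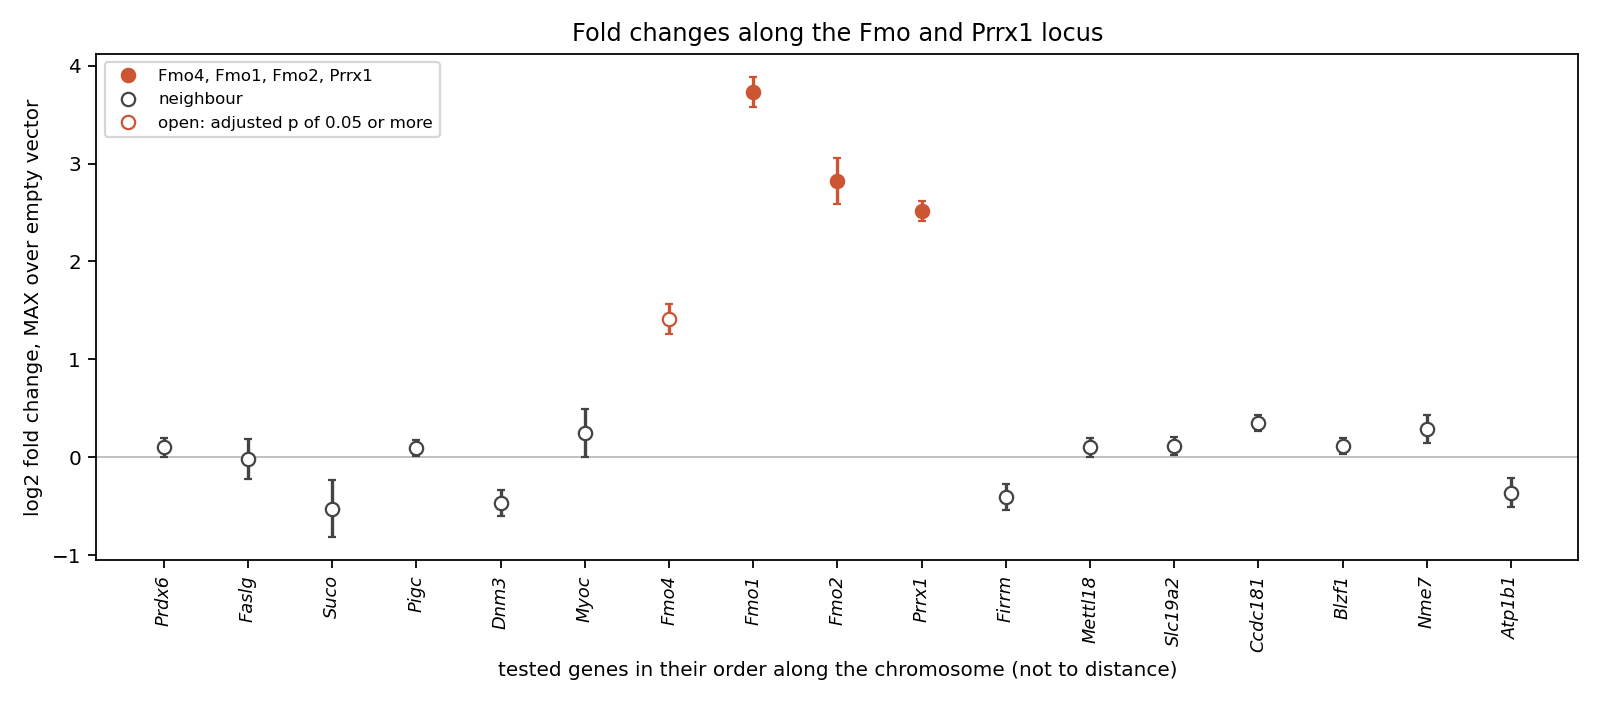
Log2 fold change of MAX over empty vector, with its SE, for tested genes in RefSeq order along chromosome 13 (order only, not distance). Fmo4, Fmo1, Fmo2 and Prrx1 lie between 1.41 and 3.73, and the 13 tested neighbours lie between -0.52 and 0.35.

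The genes that supply NADPH and flavin, the cofactors of these enzymes, held 0 calls in limma among 17 tested of 24 listed. Of the 17, 5 had an unadjusted p under 0.05. Over all genes tested, 0.840% passed and 16.1% had an unadjusted p under 0.05. With so low a share passing, 0 calls in a short list, here and below, does not show that its genes were unmoved. The list's median log2 fold change was -0.07, with 7 genes positive and 10 negative. Slc52a3, which encodes a riboflavin transporter, had -0.53 ± 0.10 (adjusted p = 0.146 in limma), and Nadk2, a mitochondrial NAD kinase gene, had 0.41 ± 0.08 (adjusted p = 0.158). Por, which encodes the reductase that feeds cytochrome P450 enzymes, had 0.14 ± 0.11.

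Among genes reported to regulate FMO genes, 16 of 24 were tested and 0 passed in limma. Of the 16, 3 had an unadjusted p under 0.05 (16.1% of all genes did), and the median was 0.03. Foxa2, a forkhead factor of liver and other endoderm, came closest. Its log2 signals were -6.14 and -6.15 in the empty vector line against -5.31 and -5.17 in the MAX vector line, which did not overlap. The difference was 0.91 ± 0.10 (adjusted p = 0.0606 in limma), with 1 of the 2 empty vector arrays well above background. It was 0.24 under normexp (adjusted p = 0.507) and passed with median scaling (0.93, adjusted p = 0.0337). The HIF2α gene Epas1 stood at -0.81 ± 0.22 (adjusted p = 0.233).

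Of 12 tested genes for other oxygen-adding or amine- and thioether-related enzymes, of 21 listed, 0 passed in limma. Of the 12, 3 had an unadjusted p under 0.05 (16.1% of all genes did), and the median was 0.08. Mical2, a flavin monooxygenase that acts on actin, had -0.69 ± 0.10 (adjusted p = 0.0979 in limma). Mical2 passed, lower, under normexp and with a trended spread. Aldh3a1, an aldehyde dehydrogenase gene, had 0.48 ± 0.14 (adjusted p = 0.247).

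Of the PRRX1 partner and mesenchymal genes, 21 of 36 were tested. Only Tagln, which encodes the actin-binding protein transgelin, passed, with log2 signals of 5.46 and 5.38 against 4.33 and 4.17. It was lower, opposite to Prrx1, with a log2 fold change of -1.17 ± 0.10 (adjusted p = 0.0477 in limma), and did not pass without any 1 array (adjusted p = 0.0682 to 0.414). A share of 0.264% of all genes passed as lower. The list's median was -0.01, with 10 genes positive and 11 negative, while 12 of the 21 had an unadjusted p under 0.05, where 16.1% of all genes did. Cdh1, which encodes the epithelial cadherin, had 1.30 ± 0.21, and Cdh2, which encodes the neural cadherin, had -0.63 ± 0.12 (adjusted p = 0.117 and 0.134 in limma). Cdh1 passed under normexp (0.92), median scaling and a trended spread. Under normexp and with a trended spread, Fn1, which encodes fibronectin, also passed as higher and Lum, which encodes the matrix proteoglycan lumican, as lower. The collagen gene Col5a1 passed as lower with a trended spread. As reported, their log2 fold changes were 0.45 for Fn1, -1.19 for Lum and -0.53 for Col5a1 (adjusted p = 0.185, 0.183 and 0.128 in limma). Twist1, a mesenchymal transcription factor gene, had 0.07 ± 0.09.

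**Figure D4:**
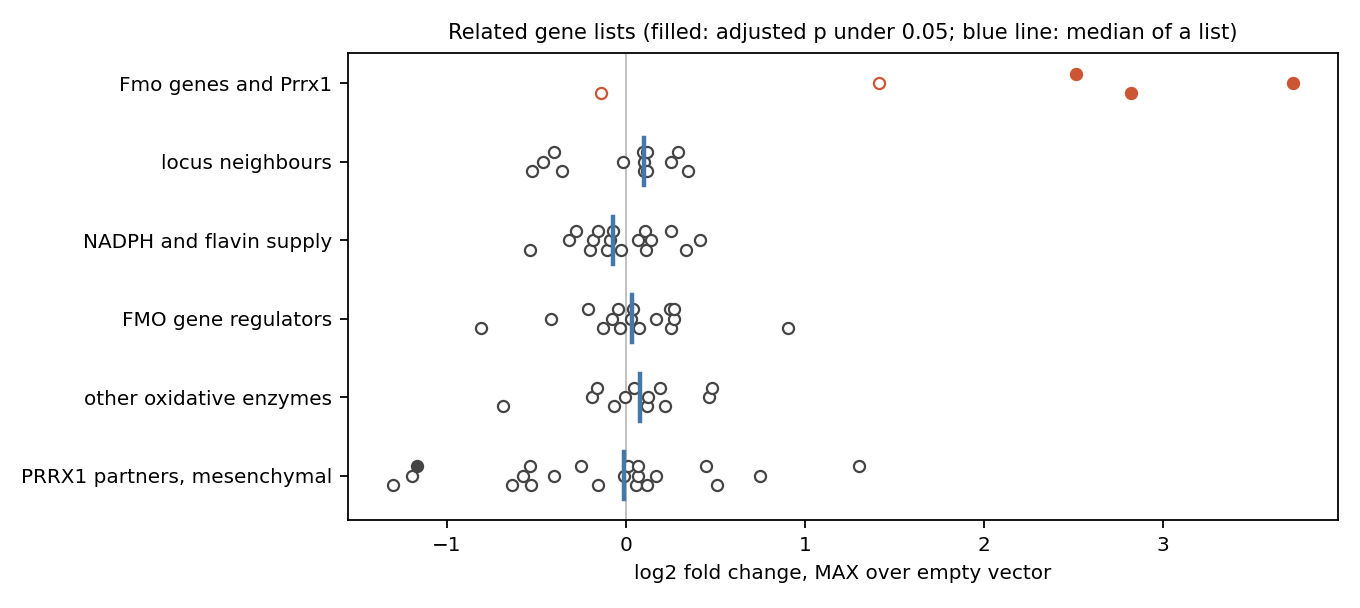
Log2 fold change of MAX over empty vector for each tested gene of the Fmo and Prrx1 group, its 13 tested locus neighbours and 4 related lists; filled points had an adjusted p under 0.05 and the blue line is a list's median. The medians lie between -0.07 and 0.10, and outside the Fmo and Prrx1 group Tagln alone is filled.

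By the smallest distance between log2 values over the 4 arrays, each gene centred on its own mean, the genes most like Fmo1 were Krt13, Spp1, Krt15, Adgrf5 and Krt19 (distances 0.39 to 0.69, among 5788 candidates). Krt13, Krt15 and Krt19 encode epithelial keratins, and Spp1 encodes osteopontin, a secreted matrix protein. Those most like Prrx1 were Tmem54, Slpi, Rassf9, Th and Mcpt1 (0.16 to 0.39). Slpi encodes a secreted protease inhibitor and Th encodes tyrosine hydroxylase, which makes the catecholamine precursor L-DOPA. Between members, the distance was smallest for Fmo2 and Prrx1 (0.64) and for Fmo1 and Fmo2 (0.97). It was 1.26 for Fmo1 and Prrx1, 1.17 to 2.32 for pairs with Fmo4, and 1.58 to 3.88 for pairs with Fmo5. None of these non-member genes lies on chromosome 13. 

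The arrays had 64.4% to 71.6% of probes well above background and 0 saturated spots. The lowest share was that of MAX vector replicate 1, the only array on its slide. Its median background was 26 units, against 29 to 29.5 on the others. The Max probe was well above background on 0 of 4 arrays, so it gives no check of which line carried the plasmid. For the labelled cell type, 8 of 10 chromaffin markers with a probe were well above background on every array. Dbh and Slc18a1 were so on both empty vector arrays but on only 1 MAX vector array each. The summed level of the 10 markers, in units of each array's 75th percentile, was 20.2 and 20.3 in the empty vector line. In the MAX vector line it was 11.6 and 11.5. The net difference was that of Ddc: the other 9 markers summed to 3.89 and 3.90 against 3.89 and 3.84. Those 9 include Th, which rose, so their flat sum hides falls in others. Of the 10 markers, 8 had a negative log2 fold change and 2 a positive one. Their median was -0.28, against -0.019 for all genes tested. Th had a log2 fold change of 2.145 and Ddc, the gene of the next enzyme of that pathway, had -1.08 (adjusted p = 0.0203 and 0.0391 in limma). The marker Phox2a had -0.74 (adjusted p = 0.086 in limma). It passed, lower, under normexp, with probes on all 4 arrays and with a trended spread.

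Markers of other cell types were also read, since Fmo1 is known from kidney and liver and Prrx1 from mesenchyme. Fibroblast markers summed to 155 to 171 with the empty vector and 158 to 167 with MAX, with 0 of 8 tested genes passing in limma (4 at an unadjusted p under 0.05) and Fap on no array. Most of that sum was the collagen gene Col3a1, and the other 8 summed to 28.9 and 31.6 against 23.3 and 23.4. Macrophage markers summed to 4.86 and 5.6 against 9.09 and 8.83, with 0 of 4 passing (2 at an unadjusted p under 0.05) and Aif1 on no array. Most of that sum was Cd14, which encodes a lipopolysaccharide co-receptor, at 4.23 and 4.88 against 8.4 and 7.65. The other 4 macrophage markers summed to 0.629 and 0.717 against 0.691 and 1.18. Cd14 (log2 fold change 0.82) passed, higher, under normexp and with a trended spread, and Lyz2, a lysozyme gene (1.32), with median scaling and with probes on all 4 arrays. Of the kidney tubule markers, Aqp1, a water channel gene, rose 4.79-fold (2.26 ± 0.14, adjusted p = 0.0304 in limma), while Slc34a1 and Umod were well above background on no array. That list summed to 0.102 and 0.116 against 0.361 and 0.460, and its 3 other genes to 0.0292 and 0.0371 against 0.0354 and 0.0562. Hepatocyte markers summed to 0.309 and 0.324 against 0.307 and 0.377, with Alb and Ttr on no array. Most of that sum was Tf, and the other 5 summed to 0.0763 and 0.0759 against 0.0815 and 0.115. All 4 tested hepatocyte markers had a positive log2 fold change, with a median of 0.39, and 0 passed in limma. Schwann cell markers summed to 0.501 and 0.571 against 0.449 and 0.568, with S100b and Erbb3 on no array. The part of the macrophage, kidney tubule and hepatocyte markers in the members' values was not tested. In bulk RNA, more cells with a transcript and more transcript per cell cannot be told apart.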

How the data were processed

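Per the file headers, the deposited scanner files hold spot intensity from Feature Extraction 10.7.3.1 (10.7 per the submitters' processing notes), with annotation of build rn4; the software subtracted background from, and spatially detrended, the processed intensity of each array. Flags for background, saturation and outliers are other deposited columns, per the file headers. The authors also deposited log2 values centred per probe on an unknown baseline (column medians -0.033, -0.0107, -0.00518 and -0.00658); differences between its columns matched the scanner files (r = 1), so its scale and direction are known.

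Flagged spots were left out, log2 intensity was averaged per probe, and each array's 75th percentile over probes was subtracted (700.5, 611.4, 590 and 666.3 units). Tests used 28563 of 40923 probes, those well above background on at least 2 of 4 arrays, with the brightest probe per gene. Symbols came from RefSeq accessions matched without versions (10746 probes; GRCr8), and limma 3.58.1 in R 4.3.3 compared the groups. The files hold no mean pixel column, so normexp used median pixels. The fit was tested on data simulated in 5 runs, with 200 of 25355 genes changed in each. Noise was independent between arrays, each gene's variance came from the distribution that limma had fitted, and no slide effect was included. There, 2.4% of 2-fold and 71.2% of 4-fold changes passed in the right direction, and 6.75% of calls were false. These shares belong to that model and need not hold for the deposited arrays. Even in that model most 2-fold changes were missed, so a lack of calls says little about changes of 2-fold or less. With 4 arrays, their number limits the precision.

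Members and lists were chosen with earlier results of these data known. Named genes were the members, other probes of the family, list genes that passed (up to 3 per direction) or otherwise the 2 that moved most, the nearest neighbours, the 5 genes most like Fmo1 and Prrx1, and Max; others named were chosen after their values were seen. Settings tried beside these are given with the limits. Some items that this rule covers are not reported here.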

Additional observations from a re-analysis of the deposited data

How the results depend on the processing

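All 5 genes kept their direction in all 17 alternatives, and 213 genes passed in limma as reported (146 higher, 67 lower). The count was 799 with normexp (429 higher, 370 lower), 541 with median scaling, 515 with probes well above background on all 4 arrays and 955 with a trended spread. It was 8 with the slide as a block, and 0 both with no filter on dim probes (4033 at an unadjusted p under 0.05) and with the replicate number as a block (3884). Leaving out 1 array gave 0 to 144: 0 without empty vector replicate 1 or 2 (1963 and 2456 at an unadjusted p under 0.05), 8 without MAX vector replicate 1, which is the same fit as the slide block, and 144 without MAX vector replicate 2. Fmo1, Fmo2 and Prrx1 lost their calls with no filter (3.73, 2.82 and 2.52), with the slide as a block (3.90, 2.96 and 2.46) and with the replicate block (3.73, 2.82 and 2.52; adjusted p = 0.086, 0.0942 and 0.0942 in limma). Fmo2 also lost it with the percentile over probes well above background on all arrays (2.845, adjusted p = 0.0508). Fmo4 passed with normexp (0.90), quantile normalization (1.43), median scaling (1.435), probes on all 4 arrays and a trended spread (1.41 in both). Leaving out 1 array gave 3.55 to 3.90 for Fmo1, 2.54 to 3.102 for Fmo2, 1.26 to 1.56 for Fmo4, -0.24 to -0.05 for Fmo5 and 2.45 to 2.58 for Prrx1. A lone array was assumed to vary like the other group. The percentile over all spots, chosen after seeing the data, gave 236 calls and kept every member's call. The differences between replicates 1 and 2 of both groups correlated at -0.0178 over genes. MAX vector replicate 1 also differed in slide, so this value does not settle whether replicate numbers pair the samples. The cause of a lost call was not tested. Signal near background limits the folds of dim probes.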
